A study of Homo sapiens with 4 samples.

Results

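The insulin-like growth factor (IGF) system was examined in MHCC97H cells, an established human hepatocellular carcinoma (HCC) line, through 10 genes chosen by name: the ligand gene IGF2, the receptor genes IGF1R and INSR, the binding protein genes IGFBP1, IGFBP2, IGFBP3, IGFBP4 and IGFBP6, and the RNA-binding protein genes IGF2BP1 and IGF2BP3. These are 10 of the 61541 genes in the deposited table. RNA was sequenced from control cells carrying a control shRNA (shCon, 2 libraries) and from cells in which UBXN1, a UBX domain cofactor gene, was knocked down by shRNA (shUBXN1, 2 libraries). No other agent or genotype is given for either group, and no time after knockdown is stated in the labels. The methods describe shRNA in the pLKO.1 vector delivered by lentivirus, whereas the series text speaks of transfection. The methods also name the control of this comparison shRFP, where the labels say shCon. Which UBXN1 shRNA was used for the sequenced cells is not given in the sources used here. Nothing states whether the 2 libraries of a group came from separate cultures, so p-values rest on the spread between these libraries, which may be technical.

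IGF1 and IGF2 are secreted peptides that act through the tyrosine kinase receptor IGF1R and, for IGF2, also through an isoform of the insulin receptor INSR, from which IRS adaptors and phosphoinositide 3-kinase carry the signal to AKT. The IGF binding proteins hold the ligands outside the cell, and proteases release them again. IGF2BP1 and IGF2BP3 are cytoplasmic proteins that bind mRNAs, IGF2 mRNA among them, and are made in fetal liver and again in many liver tumours.

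The libraries held 23373700 to 27380508 counts. UBXN1 stood at 67.1 and 77.3 counts per 1000000 (CPM, scaled by edgeR's TMM method) in shCon and at 16.8 and 18.5 CPM in shUBXN1, so that 24.4% of the control level was left (adjusted p = 9.98e-10, edgeR's quasi-likelihood test). Of the liver markers examined, KRT8 and KRT18 were abundant (895 to 3467 CPM), whereas ALB, APOA1, APOB and TTR, which define mature hepatocytes, were between 0.128 and 18.0 CPM in every library. Within the 10 liver markers examined ALB, APOB and TTR fell in shUBXN1, by log2 fold changes of -1.97, -1.85 and -3.08 (adjusted p = 5.49e-08, 8.14e-07 and 0.000249, edgeR). KRT8 and HNF4A fell as well, at -0.44 and -0.30 (adjusted p = 0.00185 and 0.00537, edgeR). Both of these calls were lost without the second shCon library, where the values were -0.43 and -0.27. KRT18 and SERPINA1 rose, by 0.31 and 0.40 (adjusted p = 0.0116 and 0.0271, edgeR). The calls of KRT18 and SERPINA1 were lost without either shCon library and after removal of the GC trend. That of SERPINA1 was also lost without the second shUBXN1 library and, with all libraries, in DESeq2 (adjusted p = 0.113, Wald test). Among markers of other cell types, 8 fibroblast and stellate genes summed to 34.02 and 34.14 CPM in shCon and 18.2 and 20.7 CPM in shUBXN1, 5 endothelial genes to 48.5 and 50.1 CPM against 92.7 and 99.95 CPM, and 6 leukocyte genes to 83.3 and 89.1 CPM against 73.1 and 70.9 CPM. These sums rested mainly on LUM, on PECAM1 and KDR, and on CD68. Another gene on the same strand shares 81.6% of the CD68 exon bases, which leaves the leukocyte sum uncertain. Against the fall of LUM and DCN (log2 fold changes -1.06 and -3.16), COL1A1 of the same list rose from 10 and 4 counts to 58 and 59 (3.11, adjusted p = 5.83e-05, edgeR). DCN did not pass without the first shCon library (adjusted p = 0.0567), and LYZ, a leukocyte gene at -1.66 (adjusted p = 0.036, edgeR), did not pass with any single library left out. ACTA2 had 0 counts in both shCon libraries, CDH5 had 0 in both shUBXN1 libraries and CD3E had 0 in all libraries. The part of the liver and other markers in the results below was not tested, and in bulk RNA fewer cells of a type cannot be told apart from less RNA per cell.

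The members that changed at least by a factor of 2 were IGFBP4, which fell, and IGFBP6, which rose, and their promoter sequences are shown for that reason. The windows run from 250 bases before to 50 bases after the RefSeq gene start (GRCh38.p14), 5′ to 3′, and capitals mark matches on either strand to a TATA box (TATAAA), a GC box (GGGCGG) or the letters GTAAACA that FOXO factors are known to bind. IGFBP4 lies at chr17:40443200-40443499 and IGFBP6 at chr12:53097417-53097716, both on the plus strand.
IGFBP4: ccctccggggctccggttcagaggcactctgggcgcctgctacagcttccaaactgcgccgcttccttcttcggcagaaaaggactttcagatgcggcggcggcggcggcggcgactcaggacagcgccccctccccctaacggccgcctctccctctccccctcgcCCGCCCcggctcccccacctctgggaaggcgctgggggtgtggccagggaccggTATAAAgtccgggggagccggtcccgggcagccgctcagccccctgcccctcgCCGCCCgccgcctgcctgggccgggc
IGFBP6: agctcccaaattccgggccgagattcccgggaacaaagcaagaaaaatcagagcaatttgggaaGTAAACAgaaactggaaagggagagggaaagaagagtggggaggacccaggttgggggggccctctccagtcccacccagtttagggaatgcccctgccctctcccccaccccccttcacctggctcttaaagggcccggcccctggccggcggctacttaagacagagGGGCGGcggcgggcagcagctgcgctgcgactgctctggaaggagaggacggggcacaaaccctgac
The IGFBP4 window held a TATAAA from base 222 and GC boxes on the reverse strand from bases 168 and 275, with no GTAAACA. The IGFBP6 window held a GTAAACA from base 65 and a GC box from base 234, with no TATAAA. Among all 35116 RefSeq promoter windows of this length, 11.5% held TATAAA, 3.4% held GTAAACA and 15786 windows held GGGCGG on either strand. The RefSeq start of IGFBP6 lies inside the gene as GENCODE places it, and so do the GTAAACA and the GC box of its window. No matches of different motifs overlapped in these windows. A match is a description of letters, and no binding was measured. Entries were found for 7 of the 10 members, and IGF2, IGFBP1 and IGF2BP1 had none.

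To ask how the system responded to the loss of UBXN1, each member was compared between shUBXN1 and shCon with edgeR's quasi-likelihood test, fitted over the 16863 genes that passed the filter on low counts. IGFBP6, INSR, IGFBP2 and IGF1R rose and IGFBP4 fell at a Benjamini-Hochberg adjusted p under 0.05, while IGFBP1, IGFBP3, IGF2BP1 and IGF2BP3 did not pass, and IGF2 was too low to be tested. These 5 genes are 55.6% of the 9 members tested, and 56.2% of all genes tested were called in either direction, so the share called was close to the background. At a fold change of 2 with an unadjusted p under 0.05, the thresholds of the study's methods, IGFBP6 and IGFBP4 were called (22.2% of the members tested), against a background of 17.9%. In that count 11.8% of all genes were higher and 6.09% lower. The CPM of the groups did not overlap for 7 of the 9 members, as was true of 78.0% of all genes tested. The median log2 fold change of the 9 members was 0.27 and that of all genes tested 0.016.

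Levels of different genes were compared per length, as transcripts per 1000000 (TPM) computed from the deposited counts and gene lengths. In shCon the order was IGFBP4 (183 TPM), IGFBP2 (103), IGFBP6 (66.6), IGFBP3 (63.9), IGF2BP3 (31.8), IGF2BP1 (27.7), IGFBP1 (18.6), IGF1R (12.8), INSR (6.77) and IGF2 (0.0965), each the mean TPM of 2 libraries. IGFBP6 and IGFBP3 overlapped between libraries in this order, and the other neighbours did not. In shUBXN1 the order opened with IGFBP6 (176 TPM), IGFBP2 (147), IGFBP4 (85.5) and IGFBP3 (68.9), followed by IGF2BP3, IGF2BP1, IGFBP1, IGF1R, INSR and IGF2. There IGFBP4 overlapped with IGFBP3, and IGF2BP1 with IGFBP1.

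**Figure D1:**
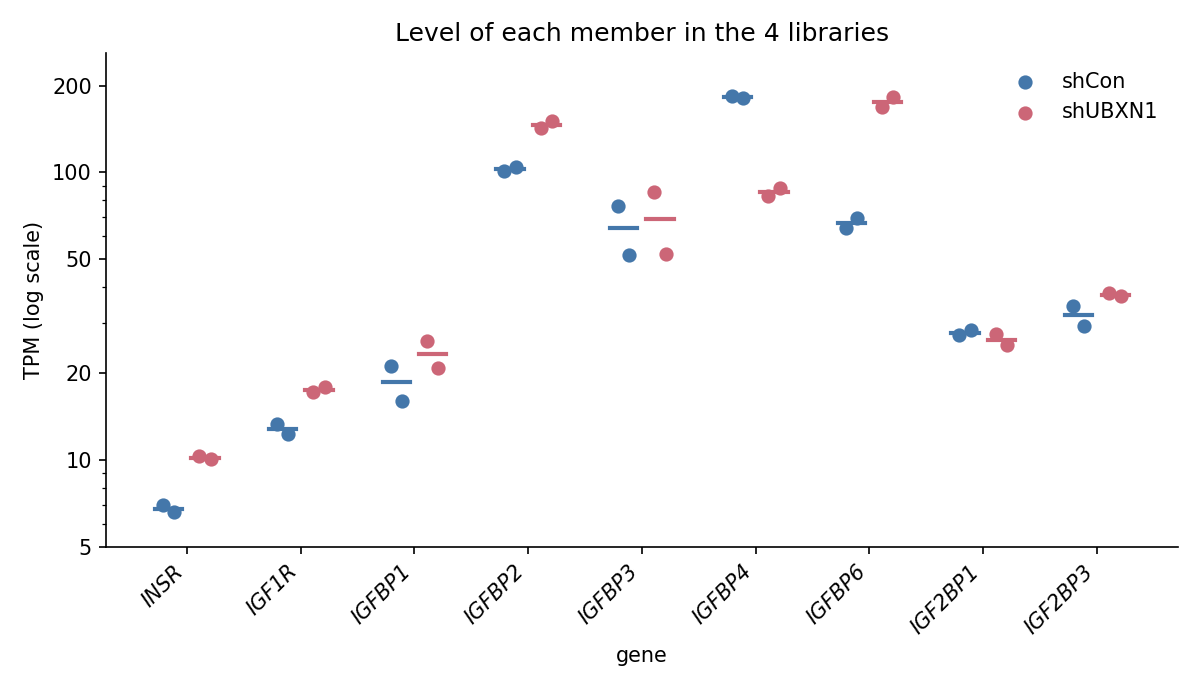
Level of 9 members in each library, in TPM on a log axis, with shCon in blue, shUBXN1 in red, 1 point per library and a line at each group's mean; IGF2, with 0 to 6 counts per library, is left out. The points of IGFBP4 lie lower and those of IGFBP6 higher in shUBXN1, and the libraries of IGFBP3 spread widely in both groups.

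The ligand gene IGF2 (chromosome 11, 2129112 to 2158391, minus strand) was near the limit of detection. The shCon libraries had 4 and 0 reads assigned to it and the shUBXN1 libraries 5 and 6. Per total count, the sum of 11 counts in shUBXN1 was 3.04 times the 4 counts in shCon, with an exact 95% interval from 0.900 to 13.1 that covers counting error only, so no difference was detectable at this depth. Genes on the same strand, the INS-IGF2 readthrough gene among them, share 43.2% of its exon bases, which leaves the value uncertain. The genes of the other ligands, IGF1 and INS, had 0 counts in all 4 libraries, as did INS-IGF2 and IGF2-AS. A count of 0 allows up to 3 counts per library.

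Both signalling receptors were higher in the knockdown cells. INSR (chromosome 19, 7112255 to 7294414, minus strand), the insulin receptor, stood at 32.4 and 31.5 CPM in shCon and at 44.9 and 47.5 CPM in shUBXN1. Its log2 fold change was 0.53 ± 0.0825 (SE, adjusted p = 7.71e-05, edgeR's quasi-likelihood test), a rise of 1.45-fold. IGF1R (chromosome 15, 98648539 to 98964530, plus strand), the main receptor of IGF1 and IGF2, stood at 80.0 and 76.3 CPM in shCon and at 97.1 and 109 CPM in shUBXN1. For IGF1R the log2 fold change was 0.40 ± 0.0794 (SE, adjusted p = 0.000633, edgeR), a rise of 1.32-fold. Neither receptor's groups overlapped, and both calls held under all 13 alternative settings, which ran from 0.42 to 0.62 for INSR and from 0.28 to 0.48 for IGF1R.

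IGF1R was the more abundant receptor transcript per length in every library. The log2 ratio of INSR to IGF1R in TPM was -0.93 and -0.91 in shCon and -0.74 and -0.83 in shUBXN1. The mean ratio was higher by 0.13 in shUBXN1, with groups that did not overlap, and an exact two-sided permutation test gave p = 0.333, the smallest that 2 libraries against 2 allow. The clearance receptor gene IGF2R, whose product takes IGF2 to the lysosome, was more abundant per length than either, with a mean of 72.4 TPM in shCon, and stood at 524 and 491 CPM in shCon and 603 and 602 CPM in shUBXN1. It rose by a log2 fold change of 0.25 (adjusted p = 0.0144, edgeR), a call lost without the first shCon library (adjusted p = 0.0573), without the second (0.420) and after removal of the GC trend (0.156). The gene of the orphan receptor INSRR had at most 1 count per library.

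Of the binding proteins, IGFBP4 and IGFBP6 changed most and in opposite directions. IGFBP4 (chromosome 17, 40443450 to 40457725, plus strand), whose product restrains IGF action until it is cleaved by the protease PAPPA, stood at 199.8 and 203 CPM in shCon and at 84.0 and 96.9 CPM in shUBXN1. Its log2 fold change was -1.16 ± 0.0816 (SE, 95% confidence interval -1.33 to -0.98, adjusted p = 3.93e-08, edgeR), and its alternatives ranged from -1.49 to -1.06. IGFBP6 (chromosome 12, 53097436 to 53102345, plus strand), a binding protein with a known preference for IGF2, stood at 29.7 and 33.2 CPM in shCon and at 73.8 and 86.3 CPM in shUBXN1. Every shUBXN1 library was thus above every shCon library for IGFBP6 and below for IGFBP4. The log2 fold change of IGFBP6 was 1.35 ± 0.0932 (SE, 95% confidence interval 1.15 to 1.55, adjusted p = 3.21e-08, edgeR). When the dependence of library counts on GC content was taken out, IGFBP6 was at 0.96, still past the adjusted threshold but under a fold change of 2.

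IGFBP2 rose less. This gene (chromosome 2, 216632828 to 216664436, plus strand), whose product is a circulating IGF carrier made by liver, stood at 70.1 and 74.9 CPM in shCon and at 92.8 and 106 CPM in shUBXN1. The groups did not overlap, and the log2 fold change was 0.46 ± 0.0823 (SE, adjusted p = 0.000298, edgeR). It passed under all 13 alternatives, from 0.25 to 0.55.

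IGFBP1 and IGFBP3, tail-to-tail neighbours on chromosome 7 with 18584 bases between them, did not pass the test. IGFBP1 (45888360 to 45893660, plus strand), the insulin-repressed binding protein of hepatocytes, stood at 15.8 and 12.3 CPM in shCon and at 18.2 and 15.7 CPM in shUBXN1. The groups overlapped, and the log2 fold change of 0.27 had a 95% confidence interval from -0.028 to 0.56 (adjusted p = 0.114, edgeR). Without the first shCon library IGFBP1 was at 0.47 and passed (adjusted p = 0.0175), as it did without the second shUBXN1 library at 0.35 (adjusted p = 0.0336, edgeR). Without the second shCon library it was at 0.081 (adjusted p = 0.737) and without the first shUBXN1 library at 0.15 (adjusted p = 0.385, edgeR).

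IGFBP3 (45912245 to 45921874, minus strand), the main IGF carrier of serum, varied more between libraries of a group than between the groups. It stood at 98.5 and 68.7 CPM in shCon and at 104 and 68.2 CPM in shUBXN1, so that replicate 1 was 1.43 and 1.52 times replicate 2. The log2 fold change was 0.040 ± 0.166 (SE, 95% confidence interval -0.32 to 0.40, adjusted p = 0.855, edgeR). Its direction depended on single libraries. It was at 0.33 without the first shCon library (adjusted p = 0.0134) and at 0.29 without the second shUBXN1 library (adjusted p = 0.0288, edgeR). The value was -0.30 without the first shUBXN1 library (adjusted p = 0.0180) and -0.21 without the second shCon library (adjusted p = 0.217, edgeR).

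The makeup of the IGFBP transcripts changed with these values. IGFBP4 supplied 41.3% and 43.0% of the summed TPM of the 5 genes in shCon and 16.3% and 17.8% in shUBXN1, and moved from the first place to the fourth and the third. IGFBP6 went from 14.3% and 16.4% to 33.4% and 37.0%, and held the first place in both shUBXN1 libraries. IGFBP2 was second in all 4 libraries, with 22.6% and 24.7% in shCon and 28.1% and 30.4% in shUBXN1. IGFBP3 kept 10.5% to 17.1% and IGFBP1 3.8% to 5.2%. The sum itself was 447 and 423 TPM in shCon and 505 and 496 TPM in shUBXN1, a difference of 65.6 TPM between the means (exact two-sided permutation p = 0.333, the smallest possible). Added as CPM, which is not divided by length, the sum was lower by 30.1 in shUBXN1 (difference -30.1), so the direction of the total depended on the unit.

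**Figure D2:**
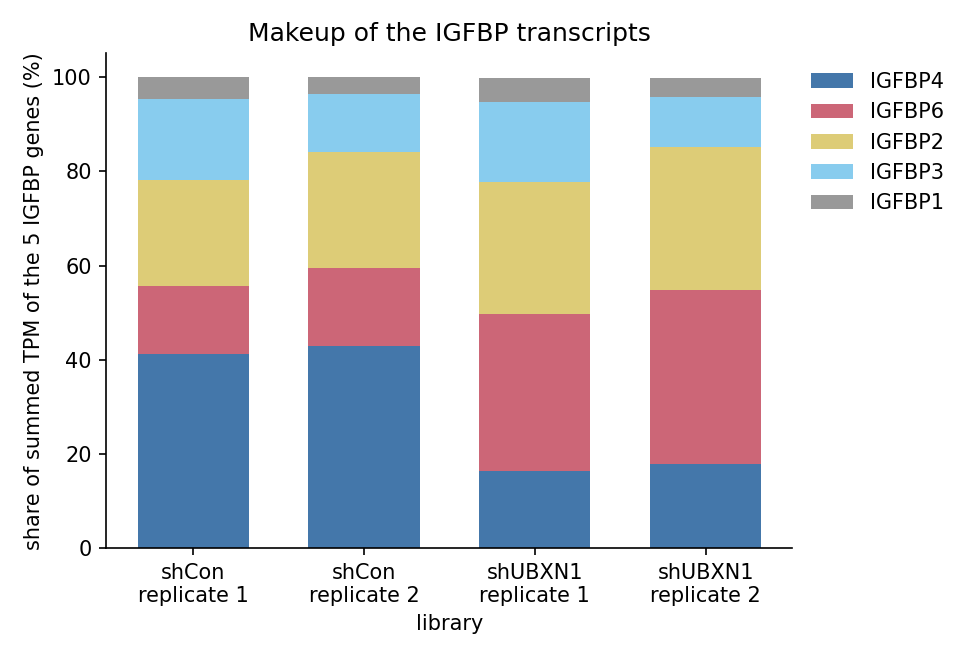
Share of each of the 5 IGFBP genes in their summed TPM, in percent, with 1 stacked bar per library. The IGFBP4 part is 41.3% and 43.0% in shCon and 16.3% and 17.8% in shUBXN1, and the IGFBP6 part is larger in both shUBXN1 libraries.

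The RNA-binding members did not pass the test. IGF2BP1 (chromosome 17, 48997385 to 49056145, plus strand), which stabilises mRNAs such as that of MYC, stood at 117 and 126 CPM in shCon and at 111 and 110 CPM in shUBXN1. The shUBXN1 libraries were lower in CPM, whereas the groups overlapped in TPM, and the log2 fold change was -0.14 (95% confidence interval -0.30 to 0.017, adjusted p = 0.119, edgeR). After removal of the GC trend IGF2BP1 was at -0.22 and passed (adjusted p = 0.0301, edgeR), the only alternative of 13 where it did. IGF2BP3 (chromosome 7, 23310209 to 23470491, minus strand), its oncofetal relative, stood at 72.1 and 63.5 CPM in shCon and at 74.8 and 79.1 CPM in shUBXN1. Its log2 fold change was 0.18 (95% confidence interval 0.0064 to 0.36, adjusted p = 0.0726, edgeR). IGF2BP3 lay close to the threshold, which it passed under 6 of the 13 alternatives, among them without the first shCon library at 0.28 (adjusted p = 0.0407) and without the first shUBXN1 library at 0.22 (adjusted p = 0.0196, edgeR). It was at 0.077 without the second shCon library (adjusted p = 0.690) and at 0.13 without the second shUBXN1 library (adjusted p = 0.195, edgeR), and the antisense gene MALSU1 covers 17.8% of its exon bases. IGF2BP2, the third gene of this family, was at 36.6 and 35.5 CPM in shCon and at 33.9 and 29.4 CPM in shUBXN1, with a log2 fold change of -0.19 (adjusted p = 0.102, edgeR). IGF2BP2 was at -0.30 and passed without the first shUBXN1 library (adjusted p = 0.0097), was at -0.10 without the second (adjusted p = 0.367), and passed at -0.27 after removal of the GC trend (adjusted p = 0.0238, edgeR).

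The balance of IGF2BP1 and IGF2BP3 can be read without library scaling. The log2 ratio of IGF2BP1 to IGF2BP3 in TPM was -0.34 and -0.056 in shCon and -0.47 and -0.57 in shUBXN1. The mean differed by -0.32, with groups that did not overlap (exact two-sided permutation p = 0.333, the smallest possible), and by -0.47 to -0.18 with single libraries left out.

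The remaining genes of these families numbered 12, of which 6 passed the filter, 4 rose and 1 fell, against 28.0% of all genes called higher and 28.2% called lower. The other 6 (IGF1, INS, INSRR, IGFBP7, IGF2-AS and INS-IGF2) had 3 counts or fewer in every library. The largest changes were those of low-level genes. IGFALS, which encodes the acid-labile subunit that joins IGFBP3 and IGF in serum, stood at 0.300 and 0.170 CPM in shCon and at 2.63 and 2.48 CPM in shUBXN1 (log2 fold change 3.39 ± 0.459 SE, adjusted p = 2.21e-05, edgeR). IGFBP5, the neighbour of IGFBP2 at 7668 bases, stood at 1.99 and 1.23 CPM in shCon and at 0.444 and 0.0854 CPM in shUBXN1 (log2 fold change -2.57 ± 0.597 SE, adjusted p = 0.00211, edgeR). Neither gene's groups overlapped. IGFBP5 rests on few counts and was at -4.17 without the first shUBXN1 library, and the antisense gene DIRC3-AS1 covers 7.5% of its exon bases. IGFBPL1, a relative of the binding proteins, was at 44.6 and 50.7 CPM in shCon and at 51.3 and 65.4 CPM in shUBXN1, and its rise (log2 fold change 0.29, adjusted p = 0.0298, edgeR) was lost under 4 of the 13 alternatives, among them without the first shCon library (adjusted p = 0.164). IGFBPL1 was at 0.45 without the first shUBXN1 library and at 0.093 without the second (adjusted p = 0.384, edgeR).

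H19, the imprinted noncoding RNA that lies 124559 bases from IGF2, was higher in shUBXN1. It stood at 57.9 and 53.3 CPM in shCon and at 84.4 and 74.6 CPM in shUBXN1, with a log2 fold change of 0.52 ± 0.0836 (SE, adjusted p = 0.000116, edgeR). After removal of the GC trend the value was 0.14 and no longer passed (adjusted p = 0.187, edgeR).

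**Figure D3:**
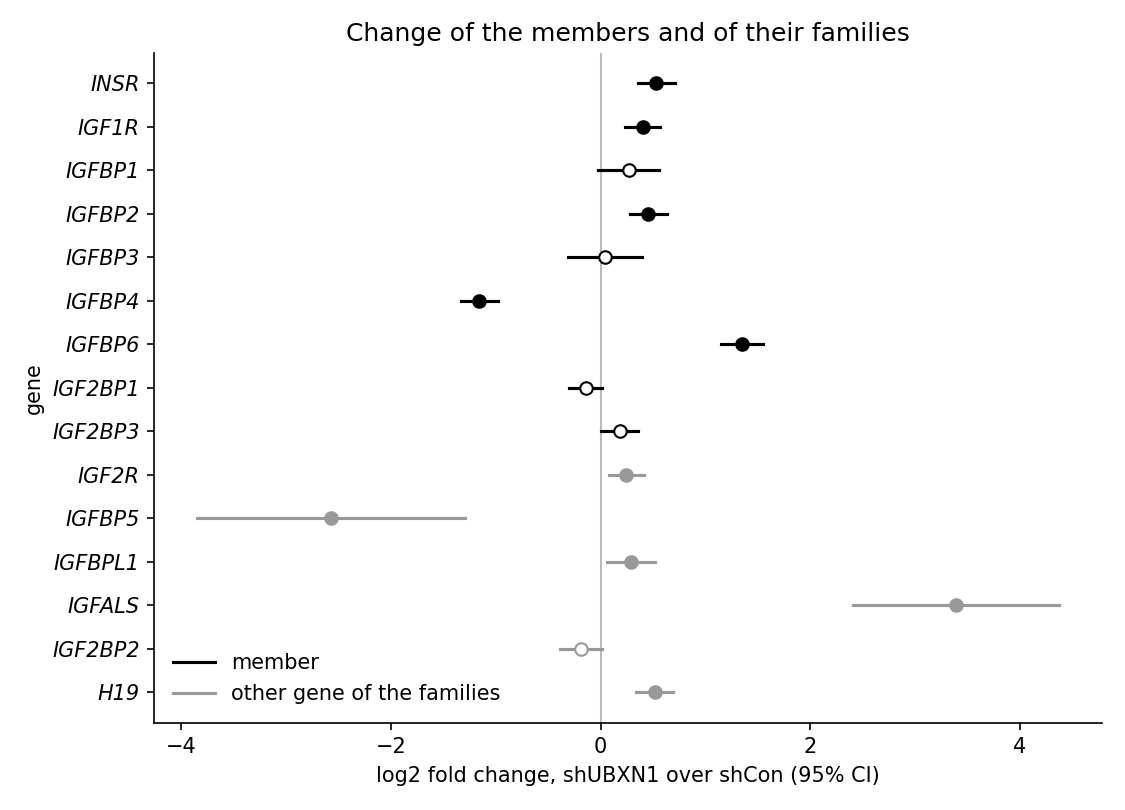
Log2 fold change of shUBXN1 over shCon for 9 members (black) and 6 other genes of the families (grey), with 95% confidence intervals from edgeR's fit; filled points have an adjusted p under 0.05. IGFBP4 at -1.16 and IGFBP6 at 1.35 lie farthest from 0 among the members, and the low-level IGFBP5 and IGFALS have the widest intervals.

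The proteases that mature the ligands and receptors or release IGF from its binding proteins were next examined together with STC1 and STC2. STC1 and STC2 do not encode proteases, and the list held 12 genes. Of 9 tested, 2 rose, 2 fell and 5 did not pass, with a median log2 fold change of 0.014, where 28.0% of all genes tested rose and 28.2% fell. FURIN, the convertase that cleaves the precursors of IGF2 and of both receptors, fell from 73.4 and 79.1 CPM to 29.8 and 29.9 CPM (log2 fold change -1.35 ± 0.0801 SE, adjusted p = 7.23e-09, edgeR). HTRA1, a secreted serine protease that can cleave binding proteins, rose from 5.18 and 5.28 CPM to 21.1 and 26.1 CPM (log2 fold change 2.17 ± 0.142 SE, adjusted p = 1.87e-08, edgeR). These groups did not overlap, and both calls held under all 13 alternatives, though an antisense gene covers 7.1% of the HTRA1 exon bases. ADAM9, a membrane metalloprotease, rose from 579 and 569 CPM to 732 and 805 CPM (log2 fold change 0.42, adjusted p = 0.00053, edgeR), a call lost without the second shCon library (adjusted p = 0.0708). ADAM12 fell by 0.26 on the log2 scale (adjusted p = 0.0329, edgeR), lost under 5 of the 13 alternatives, among them without the second shCon library (adjusted p = 0.280) and without the first shUBXN1 library (adjusted p = 0.0769). PAPPA, PAPPA2 and STC1 were too low to be tested, and STC2, which restrains PAPPA, was at 0.012 (adjusted p = 0.923, edgeR).

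In the receptor-proximal signalling list of 16 genes, 15 were tested, 7 rose, 4 fell and 4 did not pass, with a median log2 fold change of -0.052 (all genes 28.0% higher and 28.2% lower). IRS2, an adaptor of INSR and IGF1R and a known FOXO target, rose from 3.19 and 3.49 CPM to 10.8 and 10.4 CPM (log2 fold change 1.67 ± 0.175 SE, adjusted p = 1.83e-06, edgeR). IRS1, the other main adaptor, was at -0.052 (adjusted p = 0.593, edgeR). Genes of phosphoinositide 3-kinase moved in different directions. The regulatory subunit PIK3R3 rose from 10.2 and 13.2 CPM to 38.6 and 37.1 CPM (log2 fold change 1.70, adjusted p = 3.25e-08, edgeR), though the readthrough gene P3R3URF-PIK3R3 shares 17.5% of its exon bases. The catalytic subunit PIK3CA rose by 0.50 (adjusted p = 9.84e-05, edgeR), with 19.8% of its exon bases antisense to KCNMB3. The regulatory subunit PIK3R2 had a log2 fold change of -0.87 (adjusted p = 0.0176, edgeR), which rested on the second shUBXN1 library (8.07 CPM against 22.5 CPM in the first) and was -0.33 without it and -1.79 without the first. The call was lost under 3 of the 13 alternatives, and another gene shares 76.4% of the PIK3R2 exon bases. GRB2, an adaptor towards RAS, fell by 0.41 (adjusted p = 0.000458, edgeR) and PDPK1, the kinase that activates AKT, fell by 0.33 (adjusted p = 0.0017, edgeR), the latter not past the threshold in limma on log2(TPM + 1) and with 23.7% of its exon bases covered by antisense genes.

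The list of negative regulators of receptor signalling split similarly, with 4 higher, 5 lower and 3 not passing among 12 tested of 13, and a median log2 fold change of -0.12, against the same 28.0% and 28.2% of all genes. SOCS3, a feedback inhibitor induced by cytokines and insulin, rose from 14.3 and 15.4 CPM to 35.6 and 42.4 CPM (log2 fold change 1.39 ± 0.108 SE, adjusted p = 9.89e-08, edgeR). SOCS1 rose as well, from 7 and 0 counts to 37 and 18 counts (adjusted p = 0.00425, edgeR) with a log2 fold change of 2.996 ± 0.771 SE, and no fold is given without the first shCon library, since the other had 0 counts. TRIB3, a pseudokinase that binds AKT, fell from 163 and 159 CPM to 49.7 and 54.7 CPM (log2 fold change -1.63 ± 0.0778 SE, adjusted p = 1.06e-09, edgeR). GRB10, which binds and restrains both receptors, fell by 0.67 (adjusted p = 9.62e-06, edgeR), and ENPP1, an inhibitor of INSR, fell by 0.84 (adjusted p = 0.000109, edgeR). INPPL1, a lipid phosphatase, rose by 0.44 (adjusted p = 0.000135, edgeR), a call lost after removal of the GC trend (adjusted p = 0.134).

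**Figure D4:**
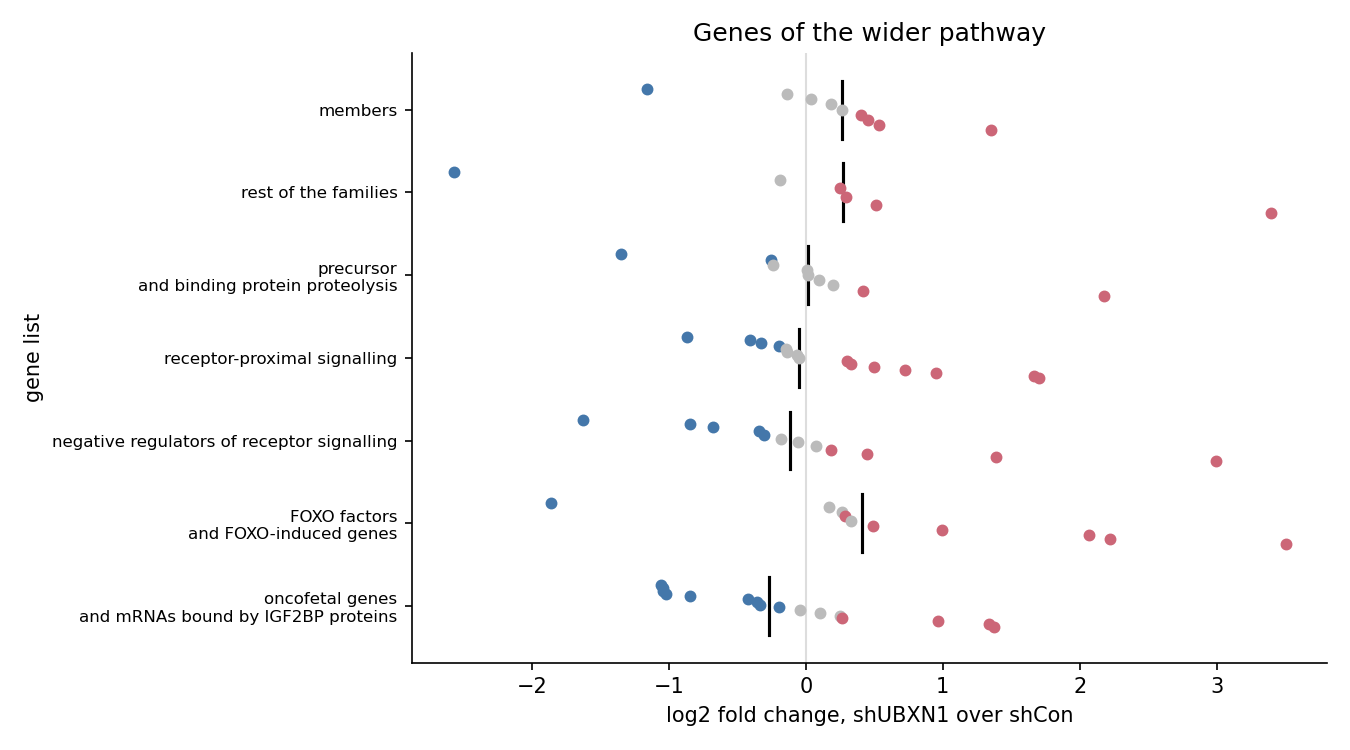
Log2 fold change of shUBXN1 over shCon for each tested gene of 7 lists, with red points higher and blue points lower at an adjusted p under 0.05, grey points not passing, and a black line at each list's median. The medians lie between -0.27 and 0.41, and every list holds genes called in both directions.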

How the data were processed

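RNA-seq libraries of MHCC97H cells (2 shCon, 2 shUBXN1) were compared. The authors deposited expected counts per gene (estimated reads, not normalized) with a gene length; by the paper's methods reads were aligned with Hisat2 to GRCh38, while the submitters' processing notes list HISAT2 2.0.4, StringTie 1.3.0 and GRCh37. The counting tool, annotation release and strand setting are not given in the sources used here, so overlapping genes are uncertain. The table holds no coordinates, and positions are from GENCODE 44 on GRCh38 (99.7% of gene IDs matched).

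Counts were rounded, filtered with filterByExpr, scaled by TMM and fitted by the quasi-likelihood method of edgeR 4.0.16 (glmQLFit, glmQLFTest, R 4.3.3), with the group as only term, 2 residual degrees of freedom per gene and Benjamini-Hochberg adjustment over 16863 genes. This method pools information on the spread across genes, so p-values and intervals do not rest on a gene's own 2 residual degrees of freedom alone. Standard errors are the log2 fold change over the square root of F. The test was run on simulated counts with few changed genes and independently drawn libraries, and the outcome is not given here. That setting differs from these data, where 56.2% of genes tested were called. TPM used the deposited lengths. Replicates differed beyond sampling noise (chi-square per degree of freedom 3.65 in shCon and 7.77 in shUBXN1).

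Members and lists were chosen with earlier results of these data known. Named are all members, UBXN1, the rest of the families, and per other list the 3 genes of smallest p in each direction among those past the adjusted threshold. ACTB, BTRC, CCND1, CCND3, CCNG1, CD44, GLI1, HMGA1, HNF4A, IRS1, KRT8, PLAGL2, STC2, the FOXO genes and the untested genes of the lists were added after their values were seen. Alternatives were DESeq2 1.42.0, total count scaling, limma 3.58.1 on log2(TPM + 1), limma-voom, no filter, at least 10 counts in every library, unrounded counts, a replicate block, each library left out and, added after seeing the data, removal of the GC trend.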

Additional observations from a re-analysis of the deposited data

How the results depend on the processing

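UBXN1, INSR, IGF1R, IGFBP2, IGFBP4 and IGFBP6 kept their direction and their side of the adjusted threshold under all 13 alternatives. With 1 library left out, the members called higher numbered 4 to 7 (7 without the first shCon library) and those called lower 1 to 2 (2 without the first shUBXN1 library). With the GC trend removed, 2 members (IGFBP4 and IGF2BP1) were called lower, and 0 were called higher at a fold change of 2, IGFBP6 being at 0.96. IGFBP3 reversed to -0.21 without the second shCon library, to -0.30 without the first shUBXN1 library and to -0.082 with the GC trend removed, and was at 0.33 without the first shCon library. The summed IGFBP level reversed to -30.1 in CPM. The whole table gave 1997 genes up and 1027 down past a fold change of 2, against 1028 and 524 in limma on log2(TPM + 1). With at least 10 counts in every library 1321 were higher, among 14974 genes tested. Total count scaling shifted the median over the table from 0.016 to 0.101 (2200 higher and 829 lower past a fold change of 2), and the GC correction to -0.059 (1715 and 1367), with 3971 genes higher and 5376 lower at the adjusted threshold against 4727 and 4751. The causes of the changes between settings were not tested.

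The same replicate numbers occur in both groups, but no source says that they mark a shared batch, and same-numbered libraries deviated with a correlation of 0.039 across all genes tested and of 0.133 across genes of mean log2 CPM above 2, which all 9 members tested exceed. With the replicate block 5000 genes were higher and 5023 lower at the adjusted threshold, and IGFBP1 (adjusted p = 0.0412) and IGF2BP3 (adjusted p = 0.0342, edgeR) passed in addition. IGFBP3 was at 0.035 with a standard error of 0.0755 under the block. IGF2 gave no value in the filtered fits. With 2 libraries per group, the spread of single genes is poorly known, and intervals cover these libraries only.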

Other observations

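FOXO transcription factors are held out of the nucleus by AKT, and genes they induce are known to rise when insulin or IGF signalling falls. A list of 14 genes held such induced genes and also the factor genes FOXO1, FOXO3 and FOXO4 themselves. Of these 14 genes, 10 were tested, 6 were higher, 1 was lower and 3 did not pass. FOXO3 is among the 6, and FOXO1 and FOXO4 are among the 3. The median log2 fold change was 0.41, and 28.0% of all genes were called higher and 28.2% lower. Left out of the list were the insulin-repressed IGFBP1, which did not pass (log2 fold change 0.27, adjusted p = 0.114, edgeR), and IRS2, which rose (1.67, adjusted p = 1.83e-06, edgeR). BCL6, a transcriptional repressor, rose from 62.0 and 59.6 CPM in shCon to 307 and 259 CPM in shUBXN1 (log2 fold change 2.22 ± 0.0904 SE, adjusted p = 2.28e-10, edgeR), and antisense genes cover 8.2% of its exon bases. PDK4, which restrains pyruvate dehydrogenase, rose from 2.29 and 2.60 CPM to 10.8 and 9.65 CPM (log2 fold change 2.07, adjusted p = 5.79e-07, edgeR). SESN3, a stress-inducible regulator of mTORC1, rose from 0.563 and 0.170 CPM to 4.65 and 3.97 CPM (adjusted p = 8.02e-06, edgeR). TXNIP, an arrestin that limits glucose uptake, moved the other way with a log2 fold change of -1.86 (adjusted p = 0.00346, edgeR), a call lost without the first shCon library (adjusted p = 0.0558). The FOXO genes themselves were at 0.33 for FOXO1 (adjusted p = 0.119, but 0.0203 at 0.58 without the first shCon library and 0.0374 at 0.44 without the first shUBXN1 library), 0.29 for FOXO3 (adjusted p = 0.00456, and 0.161 without the second shCon library) and 0.17 for FOXO4 (adjusted p = 0.386, edgeR). G6PC1 and PCK1, the gluconeogenic genes of hepatocytes, had 0 counts in all 4 libraries. The list was chosen with earlier results of these data known and holds targets of other factors too, and FOXO activity was not measured.

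Among 20 oncofetal genes and genes whose mRNAs IGF2BP proteins are known to bind, 16 were tested, 4 were higher, 9 were lower and 3 did not pass. The median log2 fold change was -0.27, and 28.0% of all genes were called higher and 28.2% lower. MYC, whose mRNA IGF2BP1 stabilises, fell from 216 and 219 CPM in shCon to 95.2 and 117 CPM in shUBXN1 (log2 fold change -1.04 ± 0.0905 SE, adjusted p = 2.99e-07, edgeR). E2F1 and SRF, transcription factors whose mRNAs are bound as well, had log2 fold changes of -1.04 and -1.02 (adjusted p = 1.61e-07 and 3.42e-07, edgeR). ACTB, a classical target of the family, stood at a log2 fold change of -1.05 (adjusted p = 1.58e-06, edgeR). CD44, CCND1 and CCND3 had smaller log2 fold changes of -0.42, -0.20 and -0.33 (adjusted p = 0.000319, 0.0384 and 0.0034, edgeR). The call of CCND1 was lost under 5 of the 13 alternatives and that of CCND3 under 1. Some other genes of the list did not pass or rose. BTRC was at 0.11 and CCNG1 at -0.043 (adjusted p = 0.403 and 0.704, edgeR). GLI1 rose by 1.38, from 10 and 13 counts to 30 and 28 (adjusted p = 0.0230, edgeR), a call lost under 6 of the 13 alternatives. The oncofetal genes PEG10 and PLAG1, the latter a known activator of the IGF2 promoter, rose by 1.34 and 0.96 (adjusted p = 3.01e-08 and 2.19e-05, edgeR). Against these, HMGA1 and PLAGL2 had log2 fold changes of -0.84 and -0.36 (adjusted p = 1.78e-06 and 0.00723, edgeR). The call of PLAGL2 was lost under 2 of the 13 alternatives. HMGA2 rose by 0.27 (adjusted p = 0.0171, edgeR), a call lost without the first shCon library (adjusted p = 0.0628), without the second (0.128) and without the second shUBXN1 library (0.16, log2 fold change 0.14). LIN28A, LIN28B, DLK1 and GPC3 had 3 counts or fewer in every library. Binding of these mRNAs was not measured here.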
